A study of Mus musculus with 18 samples.

Results

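The core circadian clock of the mouse lung was followed through 10 genes that make up its feedback loops: Arntl (also called Bmal1), Clock, Npas2, Per1, Per2, Per3, Cry1, Cry2, Nr1d1 (Rev-erbα) and Nr1d2 (Rev-erbβ). They were taken by symbol from a table of 23356 features, and all 10 were found and passed the filter on low counts. The table holds 18 libraries of whole lung from male C57BL/6 mice, sequenced after selection of poly(A) RNA. Mice were 8 to 12 weeks old at the start and 12 to 16 weeks old at the end, and were kept for 4 weeks in normoxia, with a labelled oxygen pressure near 150 mmHg, or in hypoxia, at the pressure of 18000 feet and near 70 mmHg. The 6 groups of 3 libraries (replicates 0, 1 and 2) were 3 genotypes in either exposure: wild type, mice without β-arrestin 1 (β-arrestin 1 -/-), and mice with the label β-arrestin 2 -/-. β-Arrestins switch off and redirect signalling of G protein-coupled receptors. How the alleles were made and whether every library is a separate animal are not in the labels, and p-values therefore reflect the spread among libraries, which may be partly technical. They give no hour of collection, so differences between groups and differences between hours cannot be told apart.

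The clock is a loop of transcription with delayed negative feedback, present in nearly all cells, and in the lung it is known to be strong in airway epithelium and macrophages. ARNTL pairs with CLOCK or its relative NPAS2, and the pair binds E-boxes in the Per, Cry and Nr1d genes. PER and CRY proteins return to the nucleus and inhibit the pair. NR1D1 and NR1D2 repress Arntl and Npas2 through ROR elements, which RORα uses to activate them. The RNA of Arntl and Npas2 is therefore known to run in opposite phase to that of Nr1d1, Nr1d2 and Dbp in most tissues, with Per and Cry genes peaking later than Nr1d1.

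These elements can be read in the reference promoters. RefSeq windows of 300 bases (GRCm38.p6, from 250 bases before to 50 bases after a start) were at hand for 9 of the 10 genes, with 13 windows in all and none for Per2. Both strands were searched for the E-box CACGTG, held by 7.15% of all 32817 windows, its variant CACGTT (4.69%) and the D-box TTANGTAA (2.32%). The search also covered the cAMP element TGACGTCA (1.79%), the ROR element (0.384%) and the ROR half-site AGGTCA (16.3%). The ROR element of Arntl contains that half-site. The E-box or its variant was in windows of 4 genes, Per1, Cry1, Cry2 and Nr1d1, the D-box in that of Per3 alone and the ROR element in that of Arntl alone. The stretches below are shown because they hold the named elements of the loop in these genes, with the matched letters in capitals, each 5′ to 3′ on the strand of its gene. A match is a description of the letters and not of binding.
Arntl ROR element: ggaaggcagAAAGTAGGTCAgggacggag
Leo1 ROR element: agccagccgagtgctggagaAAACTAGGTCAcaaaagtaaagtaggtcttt
Per1 E-box: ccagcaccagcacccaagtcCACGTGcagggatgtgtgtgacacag
Cry1 E-box: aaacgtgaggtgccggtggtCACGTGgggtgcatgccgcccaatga
Cry1 variant E-box: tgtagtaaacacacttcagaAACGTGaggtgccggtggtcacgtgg
Cry2 variant E-box: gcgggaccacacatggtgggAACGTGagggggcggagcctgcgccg
Nr1d1 variant E-box: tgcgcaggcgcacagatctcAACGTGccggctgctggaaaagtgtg
Per3 D-box, outer: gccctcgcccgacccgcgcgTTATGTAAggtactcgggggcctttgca
Per3 D-box, inner: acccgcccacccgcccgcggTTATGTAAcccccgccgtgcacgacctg
The Arntl stretch is chr7:113207528-113207556 on the plus strand, and its element lies 27 to 37 bases after the start. Leo1 is not one of the 10 genes and is shown because its level followed that of Arntl most closely, as given further on. Outside the 10 genes, single matches were read only for Leo1, Dbp, Tef, Hlf, Ciart and Nfil3, and of these Leo1 alone held the ROR element. The Leo1 stretch is chr9:75441437-75441487 on the plus strand, with the element 67 to 57 bases before the start. The Per1 stretch is chr11:69098763-69098808 on the plus strand, with the E-box 166 to 161 bases before the start. Both Cry1 stretches are on the minus strand and overlap, at chr10:85185089-85185134 for the E-box (60 to 55 bases before the start) and chr10:85185108-85185153 for the variant. The Cry2 stretch is chr2:92434210-92434255 and the Nr1d1 stretch chr11:98775380-98775425, both on the minus strand, and the Nr1d1 variant ends 23 bases before the start. The Per3 stretches are on the minus strand at chr4:151044843-151044890 and chr4:151044796-151044843. In the variant E-boxes the capitals AACGTG are CACGTT read on the other strand. The windows of Npas2 held none of the motifs, and those of Clock and Nr1d2 held only the half-site.

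Library totals ran from 16806806 to 25983090 estimated fragments, and the clock genes had from 41 fragments (the lowest Npas2 value) to 9705 (the highest Per1 value) in a library. Lung identity was clear, with Ager, a gene of alveolar type 1 cells, at 2000 to 4410 FPKM and Sftpb, a surfactant gene of type 2 cells, at 1230 to 2060 FPKM. Arrb1 was lower in β-arrestin 1 -/- libraries by a log2 change of -2.18 ± 0.12 in normoxia (SE, edgeR quasi-likelihood test, adjusted p = 4.01e-08) and -2.07 ± 0.12 in hypoxia (adjusted p = 8.28e-08). In the β-arrestin 2 -/- libraries, by contrast, Arrb2 showed no decrease (log2 change 0.33 ± 0.20 against wild type in normoxia, adjusted p = 0.256, and -0.18 ± 0.20 in hypoxia, adjusted p = 0.821). Arrb1 was lower there than in wild type in normoxia (-0.70 ± 0.12, adjusted p = 0.00435). That call was lost with a score of heart, airway and fat genes as a covariate (-0.56, adjusted p = 0.249), where 30 of 15388 genes tested were called. These 6 libraries are called labelled β-arrestin 2 -/- throughout. In this kind of bulk RNA, fewer cells of a type and less RNA per cell cannot be told apart. The deposited span of Clock also holds Mir1191, Nmu, Pdcl2 and Tmem165, that of Cry2 holds the opposite-strand transcript D930015M05Rik, and Nr1d1 and Thra overlap on opposite strands by 1075 bases. Per3 and Camta1 overlap by 41014 bases on the same strand in the gene annotation; Camta1 was at 20.1 to 30.9 CPM and was called in none of the 9 comparisons (0.01 ± 0.16 in labelled β-arrestin 2 -/- hypoxia, adjusted p = 0.974). The library kit does not mark strand, so fragments from such overlaps cannot be told apart, and Cry2 values were not whole numbers in all 18 libraries.

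Per length, Nr1d1 was the most abundant of the 10 genes, with a mean of 52.8 FPKM over the 18 libraries. Per1 followed at 34.6 and Cry2 at 19.0 FPKM, then Nr1d2 at 13.9, Cry1 at 12.1, Arntl at 11.9, Clock at 9.78, Per2 at 7.37, Per3 at 4.90 and Npas2 at 3.64 FPKM. The order is loose, since the ranges over libraries overlap between neighbours: Nr1d1 ran from 11.5 to 91.9 FPKM and Per1 from 7.79 to 73.4. Within one gene the highest library exceeded the lowest 18.6-fold for Arntl and 17.5-fold for Npas2 (both in CPM, counts scaled to a common library total), but 2.16-fold for Clock and 2.00-fold for Cry2. Clock, the constant partner, and Cry2 were the steadiest members, and Arntl and Npas2 the most variable.

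**Figure D1:**
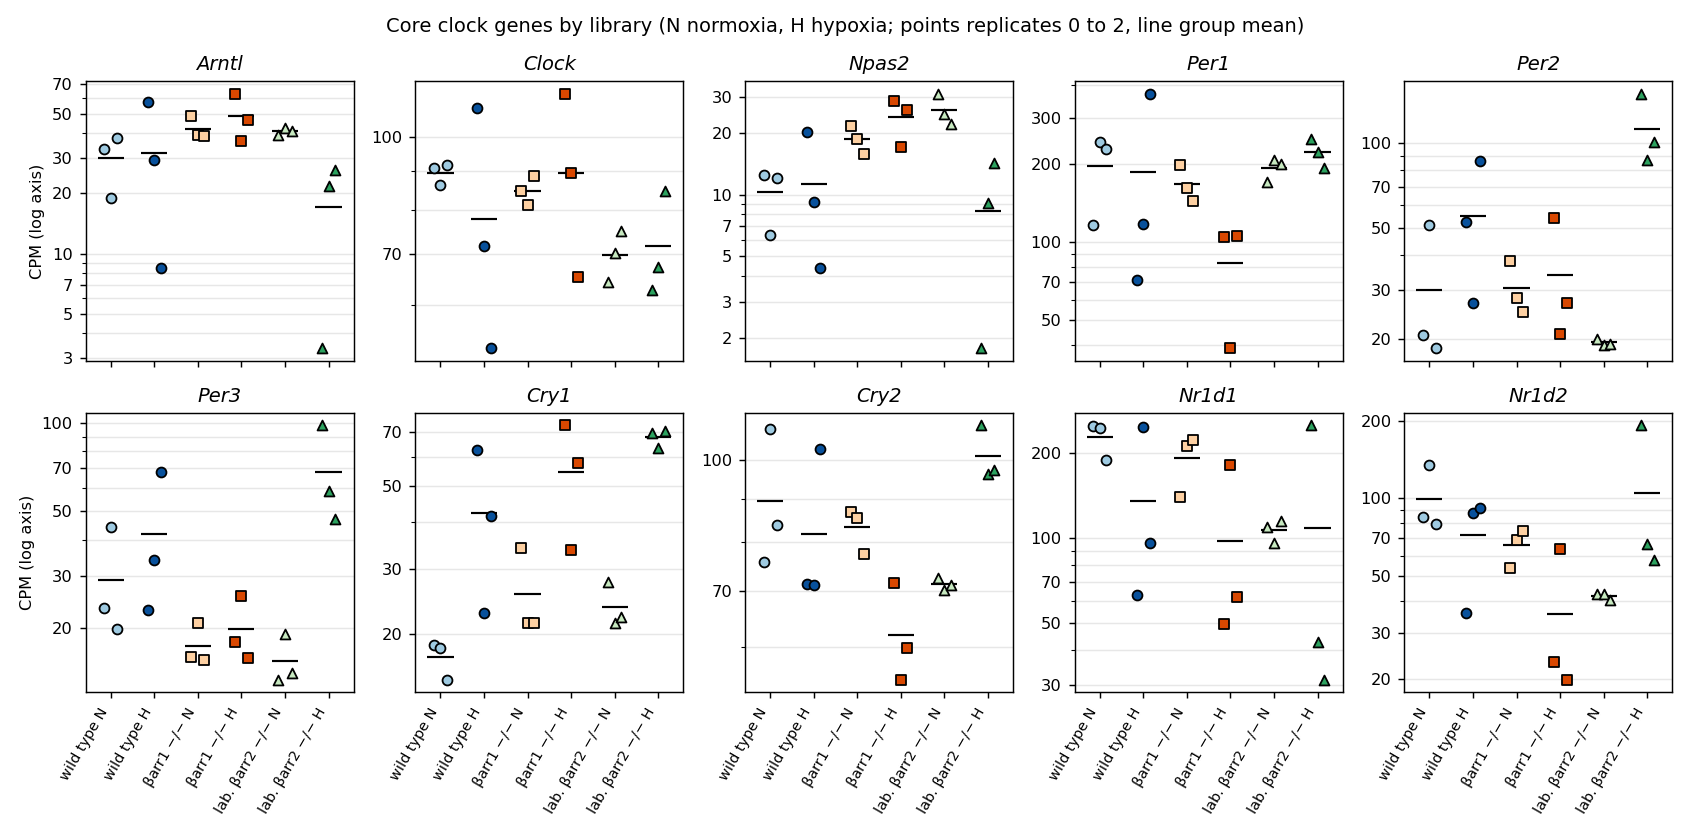
CPM (log axis) of the 10 clock genes in each of 18 libraries, with points for replicates 0 to 2 from left to right and a line at the group mean; N is normoxia, H is hypoxia and βarr is β-arrestin. In Per2, Per3 and Cry1 the 3 labelled β-arrestin 2 -/- hypoxia libraries lie above the 3 normoxia libraries of that line, while Arntl in the same hypoxia group runs from 3.38 to 26.1 CPM.

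Of the activators, Arntl and Npas2 were low in the labelled β-arrestin 2 -/- line after hypoxia, and Clock hardly moved. Npas2 stood at 31.1, 24.7 and 22.2 CPM in replicates 0, 1 and 2 of normoxia and at 1.78, 9.06 and 14.2 CPM in hypoxia in that line. The groups did not overlap, and replicate 0 of hypoxia was far below the other two. Npas2 fell by 1.64 ± 0.55 on the log2 scale (adjusted p = 0.0435). The call was lost when single libraries were left out: the log2 change was -1.16 without hypoxia replicate 0 (adjusted p = 0.122), -1.69 without hypoxia replicate 1 (0.0913), -1.48 without normoxia replicate 0 (0.119), -1.67 without normoxia replicate 1 (0.0800) and -1.73 without normoxia replicate 2 (0.0578). Elsewhere Npas2 overlapped between exposures, at 6.36 to 12.5 CPM in normoxia and 4.36 to 20.3 CPM in hypoxia in wild type (0.13 ± 0.56, adjusted p = 0.947) and at 15.8 to 21.6 and 17.0 to 28.7 CPM in β-arrestin 1 -/- lung (0.35 ± 0.53, adjusted p = 0.76).

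Arntl was at 39.2, 42.5 and 40.8 CPM in normoxia and 3.38, 21.8 and 26.1 CPM in hypoxia in the labelled β-arrestin 2 -/- line. Its groups did not overlap either, but the change of -1.26 ± 0.59 did not pass (adjusted p = 0.132), and without hypoxia replicate 0 it was -0.77. Wild type hypoxia held the widest Arntl values next to these, at 57.1, 29.4 and 8.52 CPM against 33.2, 18.9 and 38.0 CPM in normoxia, and the ranges overlapped (log2 change 0.08 ± 0.60, adjusted p = 0.971). In β-arrestin 1 -/- lung Arntl was 48.7, 39.2 and 38.6 CPM in normoxia and 62.9, 36.7 and 46.3 CPM in hypoxia, also overlapping (0.21 ± 0.57, adjusted p = 0.879). Clock lay between 52.6 and 114 CPM in all 18 libraries, and its hypoxia changes of -0.21 ± 0.21, 0.08 ± 0.21 and 0.04 ± 0.21 in wild type, β-arrestin 1 -/- and labelled β-arrestin 2 -/- lung did not pass.

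The period genes Per2 and Per3 rose in the labelled β-arrestin 2 -/- line. Per2, an inhibitor of the ARNTL pair, went from 20.1, 19.0 and 19.3 CPM in normoxia to 150, 86.9 and 101 CPM in hypoxia. Every hypoxia library was far above a tight normoxia group, and the change was 5.81-fold (log2 2.54 ± 0.45, adjusted p = 0.00171). Per3, whose promoter window holds the pair of D-boxes shown above, went from 13.3, 19.1 and 14.0 CPM to 98.2, 58.5 and 47.0 CPM. Again the groups did not overlap, with a 4.39-fold change (2.13 ± 0.39, adjusted p = 0.00205). Both calls held without hypoxia replicate 0, the library with the highest Per2 and Per3, at 2.28 ± 0.48 (adjusted p = 0.00982) and 1.77 ± 0.39 (adjusted p = 0.0126).

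In wild type lung the same period genes overlapped between exposures. Per2 was 20.7, 50.9 and 18.6 CPM in normoxia and 52.3, 27.0 and 86.1 CPM in hypoxia (0.88 ± 0.43, adjusted p = 0.282). Per3 was 23.3, 44.3 and 19.8 CPM in normoxia and 23.1, 34.0 and 68.3 CPM in hypoxia (0.52 ± 0.38, adjusted p = 0.503). Normoxia replicate 1 and hypoxia replicate 2 were the high libraries of both genes. In β-arrestin 1 -/- lung the changes were 0.16 ± 0.43 for Per2 and 0.19 ± 0.38 for Per3, and neither passed. Per1, an acutely inducible period gene with the E-box shown above, had its lowest library in β-arrestin 1 -/- hypoxia (104, 39.1 and 105 CPM) and its highest in wild type hypoxia (71.3, 117 and 371 CPM). The β-arrestin 1 -/- hypoxia values all lay below those of normoxia (198, 161 and 143 CPM), with a change of -1.02 ± 0.47 that did not pass (adjusted p = 0.275). Per1 in labelled β-arrestin 2 -/- lung was 170 to 207 CPM in normoxia and 192 to 249 CPM in hypoxia (0.20 ± 0.47, adjusted p = 0.789).

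Cry1, the cryptochrome that binds and inhibits the ARNTL pair most strongly, was higher on average after hypoxia in all 3 lines, and passed the test in 2 of them. In wild type it was 18.7, 18.4 and 15.1 CPM in normoxia and 62.4, 22.8 and 41.6 CPM in hypoxia. The groups did not overlap, with hypoxia replicate 1 nearest to normoxia, and Cry1 rose 2.43-fold (1.28 ± 0.31, adjusted p = 0.0291). This call was lost without any 1 library other than hypoxia replicate 1, with log2 changes of 0.89 (without hypoxia replicate 0) to 1.33 (without normoxia replicate 0) and adjusted p of 0.0736 to 0.101. In β-arrestin 1 -/- lung Cry1 was 34.1, 21.4 and 21.4 CPM in normoxia and 72.8, 33.7 and 57.7 CPM in hypoxia. Here hypoxia replicate 1 fell just within the normoxia range, and the change of 1.09 ± 0.31 did not pass (adjusted p = 0.0687); without that library it was 1.35 and passed (adjusted p = 0.0291). Labelled β-arrestin 2 -/- lung went from 27.6, 21.4 and 22.2 CPM to 69.4, 63.2 and 70.4 CPM, a 2.85-fold rise (1.51 ± 0.31, adjusted p = 0.0039). Both groups were tight there. No difference between the lines' responses passed: relative to wild type the response was -0.19 ± 0.43 in β-arrestin 1 -/- (adjusted p = 0.953) and 0.23 ± 0.43 in labelled β-arrestin 2 -/- lung (adjusted p = 0.748).

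Cry2, the other cryptochrome, moved less. In labelled β-arrestin 2 -/- lung it went from 72.4, 70.1 and 71.2 CPM to 110, 96.3 and 97.5 CPM, a 1.42-fold rise (0.51 ± 0.15, adjusted p = 0.025) between groups that did not overlap. That call was lost without normoxia replicate 0 (0.53, adjusted p = 0.0619), normoxia replicate 1 (0.50, 0.0703) or hypoxia replicate 0 (0.45, 0.0980). In β-arrestin 1 -/- lung it was lower in every hypoxia library (71.5, 54.9 and 59.9 CPM) than in normoxia (86.9, 85.4 and 77.4 CPM), but the change of -0.42 ± 0.15 did not pass (adjusted p = 0.152). Per length, Cry1 was below Cry2 in all normoxia libraries and above it in 3 libraries, wild type hypoxia replicate 0 and β-arrestin 1 -/- hypoxia replicates 0 and 2, where the ratio of their FPKM values was 1.18, 1.38 and 1.30.

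The Nr1d genes, nuclear receptors that repress Arntl, were uneven within the hypoxia groups. Nr1d1 was 62.9, 247 and 95.8 CPM in wild type hypoxia, 49.6, 181 and 61.6 CPM in β-arrestin 1 -/- hypoxia and 251, 42.8 and 31.4 CPM in labelled β-arrestin 2 -/- hypoxia. In each of these groups 1 library stood near the normoxia level of wild type (249, 246 and 189 CPM) and the other two were well below it. Nr1d1 in normoxia was 140, 213 and 222 CPM in β-arrestin 1 -/- and 109, 95.8 and 115 CPM in labelled β-arrestin 2 -/- lung. No hypoxia change passed: -0.75 ± 0.66 in wild type, -0.98 ± 0.66 in β-arrestin 1 -/- and 0.02 ± 0.67 in labelled β-arrestin 2 -/- lung. The last value turned to -1.52 ± 0.55 without hypoxia replicate 0 and still did not pass (adjusted p = 0.0891). Nr1d2 in labelled β-arrestin 2 -/- lung was 42.7, 42.5 and 40.5 CPM in normoxia and 192, 66.3 and 57.8 CPM in hypoxia. The groups did not overlap and the change of 1.33 ± 0.48 missed the threshold (adjusted p = 0.0571). It passed without hypoxia replicate 1 (1.58, adjusted p = 0.0489) or replicate 2 (1.62, 0.0410) and was 0.57 without replicate 0. In wild type Nr1d2 was 84.6, 135 and 79.5 CPM in normoxia and 36.0, 88.0 and 91.5 CPM in hypoxia, and in β-arrestin 1 -/- it was 53.9, 68.7 and 74.6 CPM and 23.3, 63.4 and 19.8 CPM.

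Counted together, 1 of 10 clock genes was called in wild type hypoxia (Cry1), where 4.76% of the 15388 genes tested were called. Cry1 was also the 1 gene of 10 whose wild type groups did not overlap (24.7% of all genes) and the 1 with an unadjusted p below 0.05 (19.4%). In β-arrestin 1 -/- hypoxia edgeR called 0 of 10, against 2.95% of all genes. The groups did not overlap for 2 (21.2% of all genes). Cry1, Cry2 and Per1, 3 of 10, had an unadjusted p below 0.05 (17.9% of all genes). DESeq2 called 1 of 10, against 841 of 15083 genes tested. In labelled β-arrestin 2 -/- hypoxia 5 of 10 were called, Per2, Per3, Cry1 and Cry2 higher and Npas2 lower, against 21.9% of all genes (11.1% higher and 10.8% lower). At an unadjusted p below 0.05 there were 7 of 10 (37.2% of all genes). There the groups did not overlap for 7 of 10 clock genes and for 47.9% of all genes, and the median log2 change was 0.35 for the 10 genes and -0.04 for all genes tested. Without hypoxia replicate 0 of that line 3 of 10 were called (Per2, Per3 and Cry1) and 11.0% of all genes. The clock genes were chosen with earlier results of these data known, so a share above that of all genes is not independent evidence.

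**Figure D2:**
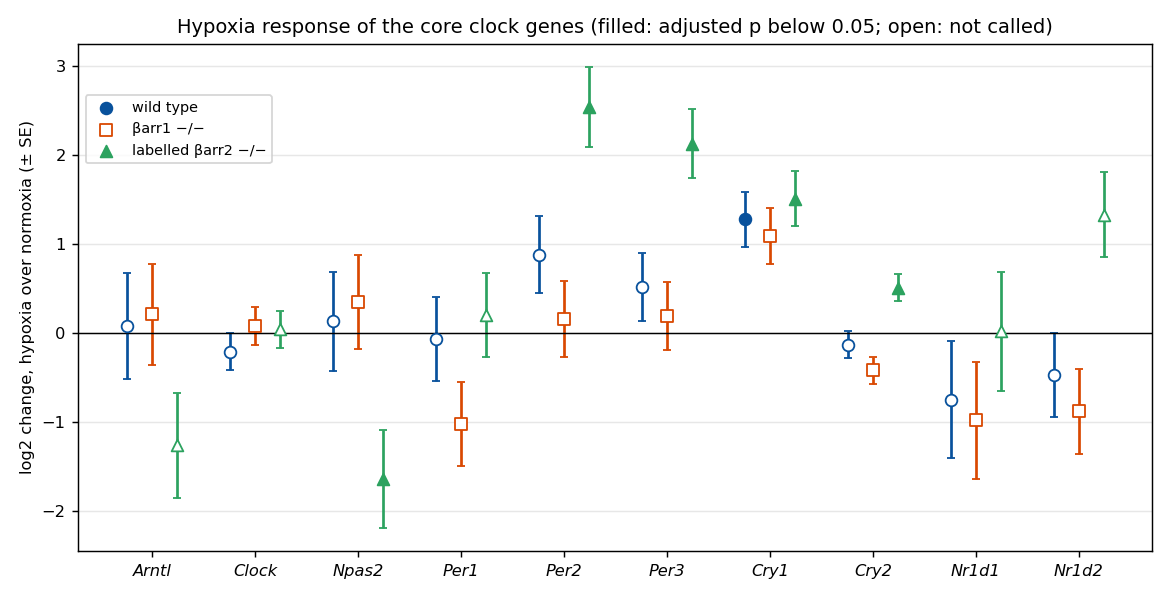
Log2 change of the 10 clock genes in hypoxia against normoxia in each line, with bars for the SE from edgeR over 3 against 3 libraries; filled symbols have an adjusted p below 0.05. Cry1 lies above 1 in all 3 lines (1.28, 1.09 and 1.51), while Per2 and Per3 are at 2.54 and 2.13 in the labelled β-arrestin 2 -/- line and at 0.88 and 0.52 in wild type, a difference between lines that did not pass.

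Whether the hypoxia responses of the lines differed was tested directly. For labelled β-arrestin 2 -/- minus wild type edgeR called 0 of 10 clock genes, against 6.05% of all genes. At an unadjusted p below 0.05 there were 5 of 10, against 26.4% of all genes: Cry2 (0.64 ± 0.21, adjusted p = 0.0771), Per3 (1.61 ± 0.54, 0.0787), Per2 (1.66 ± 0.61, 0.106), Nr1d2 (1.80 ± 0.67, 0.108) and Npas2 (-1.77 ± 0.77, 0.161). DESeq2 called 2, Per3 and Cry2, and 1880 of 15083 genes tested. Without wild type hypoxia replicate 2 edgeR also called these 2, Per3 at 2.18 (adjusted p = 0.0354) and Cry2 at 0.85 (adjusted p = 0.0316). That fit called 331 of 15517 genes tested. For β-arrestin 1 -/- minus wild type edgeR called 0 of 10 (0.0% of all genes), with 0 at an unadjusted p below 0.05 (5.84%) and 0 by DESeq2.

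The lines were also compared within each exposure, and edgeR called none of the 10 clock genes in any of the 4 comparisons. In normoxia the labelled β-arrestin 2 -/- libraries did not overlap with wild type for 8 of 10 clock genes, against 44.1% of all genes, and 0 of 10 were called, against 9.49% of all genes. Npas2 was higher in that line (22.2 to 31.1 CPM against 6.36 to 12.5; 1.33 ± 0.55, adjusted p = 0.113). Nr1d2 was lower (40.5 to 42.7 CPM against 79.5 to 135; -1.25 ± 0.48, adjusted p = 0.0942), as was Nr1d1 (95.8 to 115 CPM against 189 to 249; -1.10 ± 0.66, adjusted p = 0.261). Those were separations of the libraries without a call. In a fit of the 2 groups alone 4 clock genes passed: Nr1d1 (adjusted p = 0.00717), Nr1d2 (0.0125), Npas2 (0.0209) and Clock (0.0222). That fit called 2638 of 14896 genes tested. At an unadjusted p below 0.05 there were 4 of 10 in the fit of all groups, against 31.6% of all genes. DESeq2 called 0 clock genes and 2753 of 15382 genes tested. For β-arrestin 1 -/- against wild type 0 of 10 were called in normoxia (0.221% of all genes), with 0 at an unadjusted p below 0.05 (8.71%) and 4 of 10 not overlapping (22.6%): Arntl (0.49 ± 0.58), Npas2 (0.86 ± 0.54) and Cry1 (0.56 ± 0.31) with higher and Nr1d2 (-0.60 ± 0.47) with lower values in β-arrestin 1 -/- lung. In hypoxia 0 of 10 were called (0.201%) and 0 of 10 did not overlap (9.79%), with 3 at an unadjusted p below 0.05 (11.3%; Per3 at -1.08 ± 0.38, Cry2 at -0.40 ± 0.15 and Per1 at -1.17 ± 0.47). In hypoxia labelled β-arrestin 2 -/- lung against wild type had 0 of 10 called (0.923%) and 2 at an unadjusted p below 0.05 (11.7%), Per2 (1.03 ± 0.43) and Cry1 (0.68 ± 0.30), the same 2 whose groups did not overlap (17.5%). DESeq2 called 0 in these 3 comparisons too, against 176 of 15382, 155 of 15083 and 481 of 15382 genes tested, in the order given. These comparisons share their wild type libraries with the hypoxia comparison of wild type.

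Genes around the core loop were taken from 5 lists with 57 genes tested. These lists were chosen with earlier results of these data known. A share of called genes above that of all genes is therefore not independent evidence, in any comparison. In labelled β-arrestin 2 -/- hypoxia 24 of 57 were called (42.1%, against 21.9% of all genes), 19 higher and 5 lower (33.3% and 8.77%, against 11.1% and 10.8% of all genes). Of 7 output factors 4 rose and 0 fell. Tef, a PAR bZIP factor that binds D-boxes, went from 133, 135 and 134 CPM to 610, 373 and 342 CPM (1.72 ± 0.21, adjusted p = 0.000174) and stayed called without each single library. Hlf, of the same family, went from 24.6, 21.4 and 25.8 CPM to 165, 72.4 and 62.0 CPM (2.06 ± 0.34, adjusted p = 0.000968). Dbp, the third PAR factor, went from 8.55, 8.85 and 8.11 CPM to 213, 28.6 and 15.2 CPM (3.33 ± 1.04, adjusted p = 0.0315), and without hypoxia replicate 0 it was 1.37 (adjusted p = 0.322). The Dbp call was also lost without normoxia replicate 0, 1 or 2, and held in 5 of 9 other settings. All 3 PAR factors were highest in hypoxia replicate 0. Bhlhe41, a repressor at E-boxes, rose by 1.57 ± 0.33 (adjusted p = 0.00456), or by 0.86 ± 0.20 without hypoxia replicate 0 (adjusted p = 0.0154). Nfil3, which opposes the PAR factors at D-boxes, was at -0.53 ± 0.46, Bhlhe40 at 0.19 ± 0.24 and Ciart, an inhibitor of the ARNTL pair listed under its older symbol Gm129, at 0.62 ± 0.52, and these 3 did not pass.

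Rora, which encodes the activator RORα, rose in the same comparison by 1.45 ± 0.35 (adjusted p = 0.0101), and by 1.30 without hypoxia replicate 0 (adjusted p = 0.0441). Rora was sparse, at 1.94, 2.40 and 4.24 CPM in normoxia and 9.40, 7.49 and 6.71 CPM in hypoxia. Of 18 kinase, phosphatase and ubiquitin ligase genes that set the stability of PER and CRY proteins, 3 rose and 1 fell, together 22.2% and thus near the 21.9% of all genes called. Csnk1e rose by 0.28 ± 0.08 (adjusted p = 0.0212; 0.101 without normoxia replicate 0), while Csnk1d (-0.09 ± 0.06) did not pass. Of 14 cofactors 5 rose and 2 fell, among them Nampt, the enzyme of NAD synthesis that the clock drives, which rose by 0.74 ± 0.12 (adjusted p = 0.000741). Of 15 genes known to be rhythmic 5 rose and 2 fell: Cys1 rose by 1.78 ± 0.26 (adjusted p = 0.00042), Hsd11b1, which regenerates active glucocorticoid, by 1.23 ± 0.20 (adjusted p = 0.000885) and Pnpla2, the triglyceride lipase, by 0.75 ± 0.12 (adjusted p = 0.000618). Without hypoxia replicate 0, 17 of 57 were called, 15 higher and 2 lower, all 17 among the 24, against 11.0% of all genes.

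In wild type hypoxia 4 were called (7.02%, against 4.76% of all genes): Bhlhe40 (1.05 ± 0.24, adjusted p = 0.0229) and Timeless (0.46 ± 0.11, adjusted p = 0.0239) higher, and the cofactors Kat2b (-0.52 ± 0.11, adjusted p = 0.0111) and Tbl1xr1 (-0.40 ± 0.09, adjusted p = 0.02) lower. None of these 4 passed without wild type hypoxia replicate 2 (Bhlhe40 0.74, adjusted p = 0.119) or without wild type normoxia replicate 1 (Timeless 0.42, adjusted p = 0.115; Kat2b -0.51, adjusted p = 0.0625), nor when a score of heart, airway and fat genes entered the model (given with the marker genes further on). In β-arrestin 1 -/- hypoxia edgeR called 0 of 57 (2.95% of all genes), with 12 at an unadjusted p below 0.05 (21.1%, against 17.9% of all genes). DESeq2 called 4 there, against 841 of 15083 genes tested. The difference of responses between labelled β-arrestin 2 -/- and wild type lung was called for 8 of 57 genes (14.0%, against 6.05% of all genes), 6 higher and 2 lower. Pnpla2 (1.09 ± 0.16, adjusted p = 0.0044), Tef (1.81 ± 0.30, adjusted p = 0.00548) and Nampt (0.86 ± 0.16, adjusted p = 0.0108) kept their calls without each single library. With the same score Nampt lost its call (0.85, adjusted p = 0.0577), in a fit that called 110 of 15388 genes tested. Hlf (1.79 ± 0.47, adjusted p = 0.0364) lost its call without 6 of 12 libraries, with 1.45 without wild type normoxia replicate 1 (adjusted p = 0.0967) and 1.22 without labelled β-arrestin 2 -/- hypoxia replicate 0 (adjusted p = 0.0839). Cul1, a ubiquitin ligase scaffold (0.49 ± 0.13, adjusted p = 0.0384), and Slc41a3 (-1.02 ± 0.27, adjusted p = 0.0393) each lost their calls without 9 of 12 libraries, with adjusted p of up to 0.0935 for Cul1 (0.44, without labelled β-arrestin 2 -/- hypoxia replicate 0) and 0.0972 for Slc41a3 (-0.74, without labelled β-arrestin 2 -/- normoxia replicate 0).

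Between lines, the labelled β-arrestin 2 -/- libraries of normoxia had 5 of 57 genes called against wild type (8.77%, near the 9.49% of all genes), all lower. Tef was the lowest by fold (133 to 135 CPM against 246 to 399 CPM; -1.17 ± 0.21, adjusted p = 0.00584). The others were Cul1 (-0.40 ± 0.09, adjusted p = 0.0176), the ubiquitin ligase Huwe1 (-0.39 ± 0.10, adjusted p = 0.0252), Pnpla2 (-0.45 ± 0.11, adjusted p = 0.0266) and the corepressor Ncor1 (-0.48 ± 0.14, adjusted p = 0.0484). Tef kept its call without each single library, and it alone was called without labelled β-arrestin 2 -/- normoxia replicate 0 or 1 or wild type normoxia replicate 1. DESeq2 called 11 of 57 there, against 2753 of 15382 genes tested. A fit of only the groups compared called 19 of 56, against 2638 of 14896 genes tested. With the score of heart, airway and fat genes as a covariate 0 of the 5 passed (Tef -1.10, adjusted p = 0.248), and that fit called 30 of 15388 genes tested. In the same comparison without the score 5 of 16 cardiac and 6 of 11 airway marker genes were also called higher. In hypoxia DESeq2 called 5 of 57 against wild type, and 481 of 15382 genes tested. There edgeR called 2 of 57 (3.51%, against 0.923% of all genes), Pnpla2 (0.64 ± 0.12, adjusted p = 0.0122) and Nampt (0.57 ± 0.12, adjusted p = 0.0259), both higher. Neither passed without wild type hypoxia replicate 1 or 2 or without labelled β-arrestin 2 -/- hypoxia replicate 1 or 2, with Pnpla2 at 0.59 (adjusted p = 0.056) without wild type hypoxia replicate 2 and Nampt at 0.50 (adjusted p = 0.134) without wild type hypoxia replicate 1. For β-arrestin 1 -/- against wild type edgeR called 0 of 57 in normoxia, with 4 at an unadjusted p below 0.05 (8.71% of all genes). DESeq2 called 1 there, against 176 of 15382 genes tested. In hypoxia edgeR called 0 of 57, with 6 at an unadjusted p below 0.05 (11.3% of all genes), and DESeq2 called 0.

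The values above share a feature, a spread between libraries of the same group that is wide for the clock. The SD of log2 CPM within groups, pooled over all groups, was above the median of all tested genes (0.21) for 9 of the 10 clock genes, and the median of the 10 was 0.62. Arntl (0.92), Nr1d1 (0.90) and Npas2 (0.84) had a larger SD than 97.4%, 97.1% and 96.6% of tested genes, and Cry2 (0.19) than 45.0%. By group, the median SD of the 10 genes was 0.82 in wild type hypoxia against 0.19 for all genes, and 0.12 against 0.16 in labelled β-arrestin 2 -/- normoxia. In that last group 3 of 10 clock genes were above the median, and Per2, Nr1d2 and Cry2 had SDs of 0.04, 0.04 and 0.02. The other 4 groups lay between, with medians of 0.24 to 0.49 against 0.11 to 0.27.

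**Figure D3:**
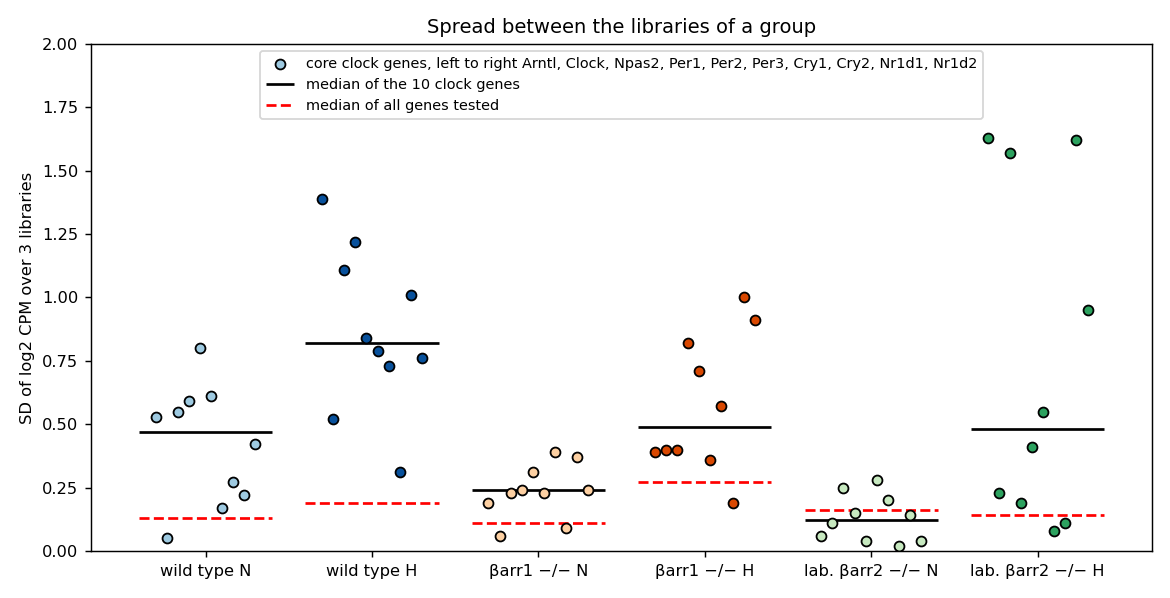
SD of log2 CPM over the 3 libraries of each group, 1 point per clock gene, with the median of the 10 genes (black line) and of all genes tested (red dashed line). All 10 clock genes are above the red line in wild type hypoxia, and 3 of 10 are in labelled β-arrestin 2 -/- normoxia.

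The spread had a common direction in several libraries. Labelled β-arrestin 2 -/- hypoxia replicate 0 held the lowest Arntl and Npas2 of all 18 libraries and the highest Per2, Per3, Cry2, Nr1d1 and Nr1d2. Wild type hypoxia replicate 2 paired low Arntl (8.52 CPM) with high Per1 (371 CPM), and wild type normoxia replicate 1 paired the lowest Arntl of normoxia (18.9 CPM) with the highest Nr1d2 of normoxia (135 CPM). At the other end β-arrestin 1 -/- hypoxia replicate 0 held the highest Arntl (62.9 CPM) beside Nr1d2 of 23.3 CPM. The FPKM ratio of Arntl to Per2 gathers this in 1 number per library: it ran from 0.0478 in labelled β-arrestin 2 -/- hypoxia replicate 0 to 4.80 in labelled β-arrestin 2 -/- normoxia replicate 1. It was below 1 in 5 libraries, which were all 3 of labelled β-arrestin 2 -/- hypoxia (0.0478, 0.535 and 0.553), wild type normoxia replicate 1 (0.822) and wild type hypoxia replicate 2 (0.218).

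**Figure D4:**
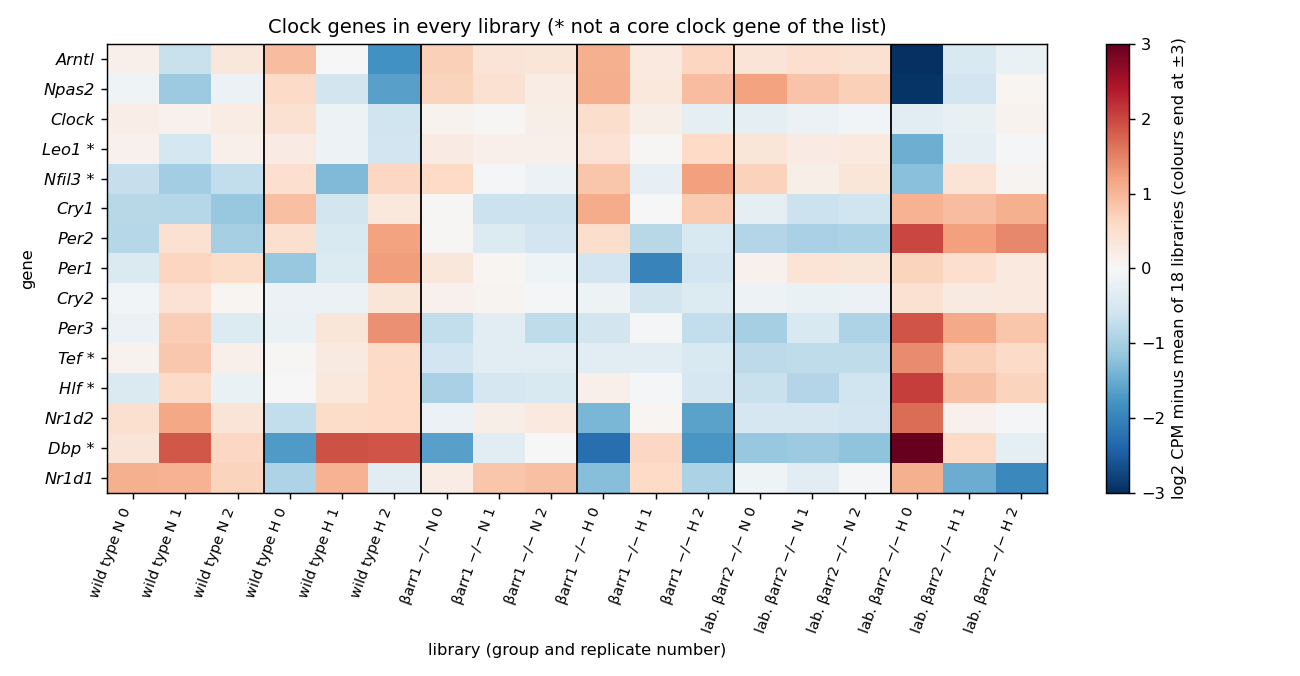
Log2 CPM minus the gene's mean over 18 libraries (colour) for the 10 clock genes and 5 related genes marked with an asterisk, with libraries as columns in their groups and colours ending at 3 in either direction. In labelled β-arrestin 2 -/- hypoxia replicate 0 Arntl (3.38 CPM) and Dbp (213 CPM) lie at opposite ends of the scale.

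Pairs of genes were described by Pearson's r of log2 CPM over the 18 libraries after each group's mean was taken away, so that only the spread within groups counts. All genes share the same libraries and depths, and no p is attached. Arntl and Npas2 rose and fell together, with r of 0.97 (0.94 without the 2 libraries farthest from the Arntl median). Against Arntl, Nr1d2 had r of -0.81, Per3 -0.85 and Dbp -0.83, and without the 2 farthest libraries -0.77, -0.78 and -0.81. Nr1d1 against Arntl was at -0.67, and at -0.69 without the 2 farthest libraries. Nr1d1 and Nr1d2 went together at 0.88, and Nr1d2 and Dbp at 0.96. Per2 went with Cry2 (0.90) and Per1 with Cry2 (0.82), while Per2 against Arntl was -0.43 and -0.14 without the 2 farthest libraries. Cry1 was apart from the activators, with r of 0.18 to Arntl. Of 45 pairs among the 10 genes, 8 reached 0.8 in size. Without centring, Pearson's r and Spearman's rho were 0.94 and 0.90 for Arntl and Npas2, and -0.76 and -0.86 for Arntl and Nr1d2. For Arntl and Nr1d1 they were weaker, at -0.24 and -0.36.

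**Figure D5:**
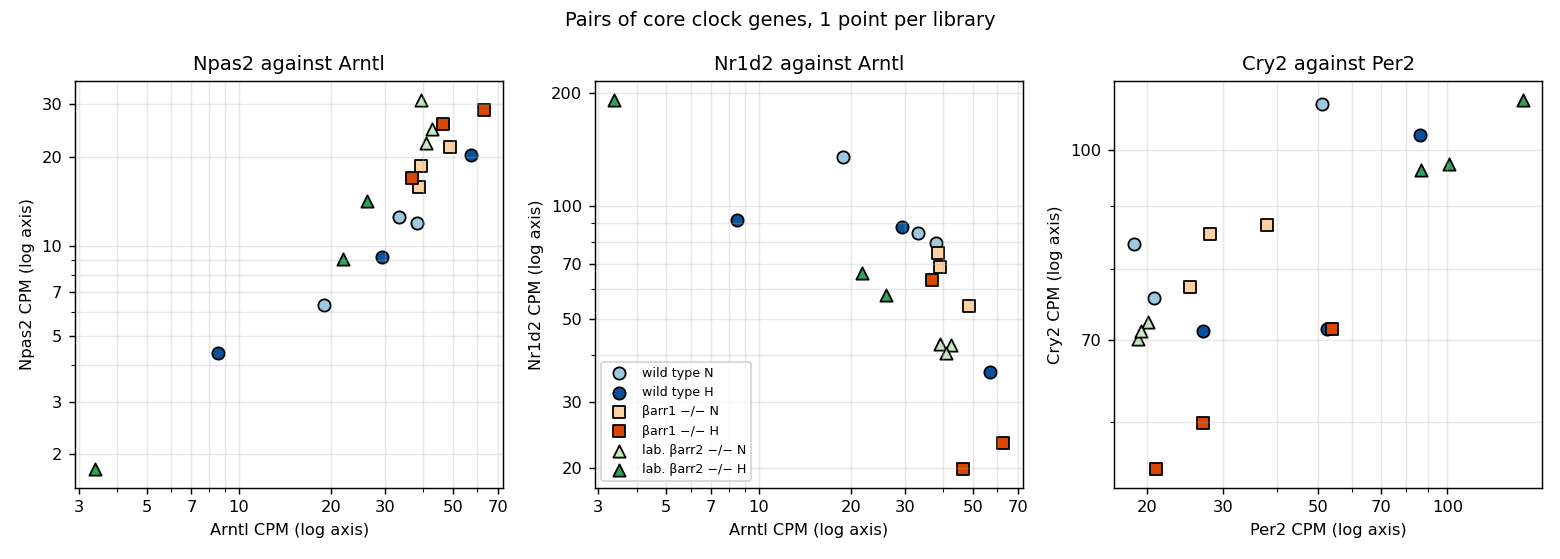
CPM of 3 pairs of clock genes on log axes, 1 point per library and 1 symbol per group. Npas2 climbs with Arntl from 1.78 to 31.1 CPM, Nr1d2 descends with it from 192 to 19.8 CPM, and Cry2 goes with Per2 over a narrower range of 54.9 to 110 CPM.

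Among 12392 other genes above a minimum mean level (log2 CPM of 1), those most like Arntl over the 18 libraries (Pearson's r of log2 CPM) were Leo1 (0.96), Creb3l1 (0.87), Tmem171, Dtx4 and Fam189a2 (0.84 each). Symbols of unnamed gene models were left out of this ranking, and with them Ciart, listed as Gm129. Its r with Arntl was -0.82, and -0.86 with group means removed. Leo1, a subunit of the PAF1 complex of RNA polymerase II, ran from 10.6 CPM in labelled β-arrestin 2 -/- hypoxia replicate 0 to 44.4 CPM in β-arrestin 1 -/- hypoxia replicate 2, and its window holds the ROR element shown above. Those most opposite were Mthfd1l (-0.96), a mitochondrial folate enzyme, Tspan4 (-0.89), Ephx1 (-0.87), Dbp (-0.85) and Bhlhe41 (-0.82). With group means removed, Leo1 (0.93) and Creb3l1 (0.91) were again highest, followed by Pafah2, Irx5 and Ccnjl (0.87 each), and Mthfd1l (-0.97), Tspan4 (-0.91), Ephx1 (-0.89), Tef (-0.88) and Ifrd2 (-0.85) were lowest. Some rested on few libraries: without the 2 farthest, r on log2 CPM was 0.89 for Leo1 and -0.84 for Mthfd1l, but 0.43 for Fam189a2 and -0.44 for Bhlhe41. Leo1, Dtx4, Tspan4, Dbp, Bhlhe41 and Tef were already on the lists of genes around the core loop.

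Markers of other cell types and of handling differed in level between some of these groups. Their counts of called genes stand beside the shares of all genes called in hypoxia. These were 4.76% in wild type, 2.95% in β-arrestin 1 -/- and 21.9% in labelled β-arrestin 2 -/- lung (11.1% higher and 10.8% lower). The 16 cardiac muscle genes tested summed to 76.1 to 449 CPM in wild type normoxia and 1120 to 2010 CPM in wild type hypoxia, with 0 of 16 called, and to 548 to 7260 CPM and 1890 to 3400 CPM in labelled β-arrestin 2 -/- normoxia and hypoxia, where they overlapped and 0 of 16 were called. Club and secretory airway genes summed to 3840 to 5940 CPM and 5500 to 6910 CPM in the wild type groups, with 4 of 11 called higher, and to 5660 to 12100 CPM and 6730 to 7280 CPM in the labelled β-arrestin 2 -/- groups, with 0 of 11 called higher and 1 lower. Adipocyte genes summed to 2180 to 2350 CPM and 983 to 1740 CPM in the wild type groups, with 1 of 11 called higher and 1 lower, and Lep and Ucp1 were at 0 in all wild type normoxia libraries. The mean over adipocyte genes of centred log2 CPM went the other way, from -1.93, -1.11 and -0.60 in wild type normoxia to 0.41, 0.63 and 0.28 in hypoxia. With a score of these 3 lists as a covariate Cry1 in wild type hypoxia was at 1.42 and no longer passed (adjusted p = 0.267), and the 5 calls in labelled β-arrestin 2 -/- hypoxia held. That fit called 43 of 15388 genes tested in wild type hypoxia and 3490 in labelled β-arrestin 2 -/- hypoxia. The score was -1.88, -2.81 and -1.42 in wild type normoxia and 0.62, 0.65 and 0.97 in wild type hypoxia. In wild type, score and exposure therefore cannot be told apart, and the lost calls do not show a part of these tissues. Immediate early genes, which also respond to handling, summed to 2400 to 2820 CPM in wild type normoxia and 2820 to 7380 CPM in wild type hypoxia (11 of 20 called higher). In labelled β-arrestin 2 -/- lung they summed to 2390 to 2790 CPM and 3500 to 5540 CPM (5 of 20 called higher and 1 lower). Of 17 glucocorticoid-responsive genes 4 were called higher and 2 lower in that line, with sums of 3920 to 4120 CPM in normoxia and 4020 to 5280 CPM in hypoxia. Of the immune lists in labelled β-arrestin 2 -/- lung, neutrophil genes summed to 38.5 to 43.7 CPM in normoxia and 65.1 to 171 CPM in hypoxia (2 of 9 called higher) and alveolar macrophage genes to 526 to 569 and 807 to 1220 CPM (1 of 10). T and NK cell genes (41.7 to 56.6 and 44.7 to 63.3 CPM) and B and plasma cell genes (53.2 to 80.3 and 43.1 to 72.3 CPM) overlapped there, with 0 of 11 and 0 of 9 called. Neutrophil genes in β-arrestin 1 -/- lung summed to 29.1 to 70.8 and 165 to 377 CPM (4 of 9 called higher), and 2 of 10 alveolar macrophage, 0 of 11 T and NK cell and 0 of 9 B and plasma cell genes were called. In wild type hypoxia 1 of 9 neutrophil, 3 of 10 alveolar macrophage, 4 of 11 T and NK cell and 5 of 9 B and plasma cell genes were called higher. The part of the immediate early, glucocorticoid and immune lists in the clock values was not tested.

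The authors' deposited table of comparisons calls more clock genes. At a q-value below 0.05 it lists 5 of 10 in wild type hypoxia (8.98% of its tested genes), 5 of 10 in β-arrestin 1 -/- hypoxia (7.8%) and 7 of 10 in labelled β-arrestin 2 -/- hypoxia (18.2%). In the authors' deposited table the wild type calls are Per2, Per3, Cry1, Nr1d1 and Nr1d2, and those in labelled β-arrestin 2 -/- hypoxia are Arntl, Npas2, Per2, Per3, Cry1, Cry2 and Nr1d2. For the line comparisons in normoxia the authors' deposited table lists 5 of 10 for β-arrestin 1 -/- (4.33%) and 5 of 10 for labelled β-arrestin 2 -/- (14.6%), and in hypoxia 6 of 10 (4.51%) and 5 of 10 (5.28%). Of the 5 wild type genes, Cry1 alone had groups that did not overlap.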

How the data were processed

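The submitters' processing notes name FastQC, TopHat, Cuffdiff and mm10, with no versions. The authors deposited an estimated count of fragments for each gene in each library without normalization (93.3% of values were whole), FPKM values, and a table of comparisons with p-values and q-values. Of 23356 features, 5 marked HIDATA were dropped (Sftpc and Scgb1a1 among them). Another 20 marked FAIL somewhere stayed in, Per1 in 2 libraries among them. Symbols of 27 features had become dates, and 2 per-library columns were not used.

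Rounded counts were tested with edgeR 4.0.16 (R 4.3.3; TMM, filterByExpr over 6 groups, 15388 genes, 1 fit of 18 libraries, quasi-likelihood F-tests, Benjamini-Hochberg, threshold 0.05), which gave each adjusted p and SE for which no other tool is named. DESeq2 1.42.0 and limma 3.58.1 were alternatives. The procedure was tested on simulated counts. CPM used TMM-scaled totals. No libraries were identical.

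The rule for named genes covered the 10 clock genes (in comparisons where a gene did not pass, some are given by counts only), other clock genes where called (smallest p first, up to 6 a comparison) or on a fixed list of 12 (2 of these are not reported here), and the 5 genes most and least like Arntl. Clock genes and lists were chosen with earlier results of these data known. Promoters came from RefSeq. Figures used matplotlib 3.10.9.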

Additional observations from a re-analysis of the deposited data

How the results depend on the processing

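Of 1470 values of single clock genes under an alternative, 1436 stayed on their side of the threshold, 14 gained a call and 0 reversed a called direction; of the 90 alternatives of called values, 20 lost the call; in 75 the sign differed with neither value called. The wild type count of 1 (Cry1) became 0 with limma on log2(FPKM + 1), on log2(FPKM + 0.1) and without a minimum, with the score of heart, airway and fat genes (tissue score) as covariate and with only the groups compared, and was 0 to 1 without single libraries. The β-arrestin 1 -/- hypoxia count of 0 became 1 with DESeq2 and ranged from 0 to 1 without single libraries. The labelled β-arrestin 2 -/- hypoxia count of 5 ranged from 3 to 6 without single libraries. The labelled β-arrestin 2 -/- normoxia count against wild type went from 0 to 4 with only the groups compared, where 2638 of 14896 genes were called. The count for the difference of responses, labelled β-arrestin 2 -/- minus wild type, went from 0 to 2 with DESeq2, which called 1880 of 15083 genes. It ranged from 0 to 2 without single libraries. For these moves the cause was not tested, except that fits of the groups compared or without a library rest on fewer samples. DESeq2's size factors and dropping the filter moved none of the 9 counts by more than 1.5 times.

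The replicate numbers were used as a block. Over all genes, libraries of the same number had correlated deviations of -0.206 to 0.429, and no comparison had all 3 above 0.1. For β-arrestin 1 -/- against wild type in hypoxia the values were 0.429, -0.032 and 0.228. In those 2 groups Nr1d1 was highest in replicate 1 of each (181 and 247 CPM). Per1 was lowest in replicate 1 of β-arrestin 1 -/- (39.1 CPM) but in replicate 0 of wild type (71.3 CPM). Whether libraries of a number share a batch or an hour of collection was not tested. With the replicate block the β-arrestin 1 -/- hypoxia count went from 0 to 1 (Cry1 at 1.07, adjusted p = 0.0255), and Npas2 in labelled β-arrestin 2 -/- hypoxia lost its call (-1.58, adjusted p = 0.0654).

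With 3 libraries a group, Arntl and Nr1d1 had SEs of 0.57 to 0.67 (log2) in single comparisons, which limits the changes that could be called; their lowest values were 78 and 720 fragments.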
